A study of Mus musculus with 6 samples.

Results

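Cathepsin E and 9 other genes of the endosomal and lysosomal protein-degrading system were followed in germinal centre B cells, the B cells that mutate and select their antigen receptors in the spleen after immunization. The genes were the rows of the deposited count table named Ctse, Ctsd, Ctss, Ctsb, Ctsh, Ctsl, Ctsz, Ctsc, Lgmn and Ifi30. All 10 were found among the 23412 rows, and all 10 passed the filter on low counts. Ctse was selected on its measured fold change between the same DAF-TM and control libraries, where it stood 10th of all genes tested, and the others were picked as its functional relatives with that result known. The differences below are therefore descriptions, and nothing is read from how many of the 10 changed.

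The DAF-TM mice carried the genotype Cg1-cre(+/-);DAF-TM(fl/fl), with the floxed DAF-TM allele placed at R26 (Rosa26) by the series' design text, and the control mice carried Cg1-cre(+/-) alone. The title line of the count table and the treatment notes write the alleles as DAF-Tg, (fl/fl) or, in controls, (+/+), and the title line writes the Cre allele as cg1-cre (+/fl) in both groups. Cg1-cre expresses Cre from the immunoglobulin gamma 1 locus, which activated B cells switch on, so every library came from a Cre carrier and no Cre-free group was analysed here. All mice were given sheep red blood cells, and cells positive for B220, GL7 and Fas were sorted 10 days later. Neither the age of the mice nor any pooling is stated in the labels, so p-values measure the spread between libraries, which may be technical.

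DAF-TM columns 2 and 3 were identical in every row and were counted as 1 sample, which left 2 DAF-TM and 3 control libraries of 7257339 to 12783965 counts. Cd55, the gene for DAF, had 712 and 725 normalised CPM (counts scaled to a common library size) in DAF-TM libraries 1 and 2, against 28.7, 34.3 and 23.4 in control libraries 1 to 3. Reads of the transgene and of the mouse's own Cd55 were not told apart. The germinal centre markers summed to 3992 and 4083 CPM in DAF-TM libraries and to 4352, 5069 and 4580 in controls, with none of 12 at 0, and the pan-B markers summed to at least 10162 CPM in every library. All 12 germinal centre markers had negative log2 fold changes (median -0.23) and none was called; in 6 both DAF-TM libraries lay below every control, beside 9.02% of all genes tested. Their part in the values of the 10 genes was not tested. Sex-linked genes differed within groups. Xist stood at 296 and 719 CPM in the DAF-TM libraries and at 758, 2.63 and 2.86 in controls, and 4 Y-linked genes summed to 289 and 0 CPM in the DAF-TM libraries and to 0.106, 707 and 477 in controls (where no read was counted, up to 0.253 CPM is still possible by counting error). DAF-TM library 1 thus held both kinds of transcript, and values without it are given below.

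B cells take up antigen through their receptor, cut it in acidic endosomes and load the peptides on MHC class II for display to helper T cells. Endosomal proteases do this cutting, and they also trim away the invariant chain that keeps the MHC class II groove closed. They fall into classes by their chemistry: aspartic proteases such as cathepsins D and E, cysteine proteases of the papain family, and the asparaginyl endopeptidase legumain. GILT is not a protease but a thiol reductase, which opens disulfide bonds so that proteases can reach their sites. Cathepsin E is an endosomal aspartic protease found in few cell types, among them gastric epithelium, red cell precursors and cells of the immune system. Cathepsin D is its widely expressed lysosomal relative.

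Ctse had the largest difference of the 10. The gene lies on chromosome 1, chr1:131638314-131675507 on the plus strand (GRCm38, the mm10 build of the count table). It had 1187 and 1815 raw counts in DAF-TM libraries 1 and 2, against 255, 522 and 191 in control libraries 1 to 3. Scaled for library size these were 107 and 153 CPM in the DAF-TM libraries and 27.0, 44.3 and 26.0 in the controls. Both DAF-TM libraries stood above every control, and within the controls library 2 stood above the other two. The means were 130 ± 32.8 CPM in DAF-TM cells (SD, n = 2) and 32.4 ± 10.3 in control cells (SD, n = 3). The fitted fold change was 3.99 (95% interval 3.16 to 5.03, log2 fold change 2.0, SE 0.17). No p-value is given for Ctse, because this difference is what chose it, and the interval does not allow for that choice. Set against the mean of the controls, DAF-TM library 1 was higher by 1.75 and library 2 by 2.27 on the scale of log2(CPM + 0.5).

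The size of the Ctse difference varied with the libraries used, and is given as a description. Its log2 fold change was 2.22 without DAF-TM library 1 and 1.71 without DAF-TM library 2, where a single DAF-TM library remained and was assumed to vary like the rest. It was 1.88, 2.29 and 1.89 without control libraries 1, 2 and 3. With the summed Y-linked level as a term in the fit it was 2.13. The standard error of Ctse drew mostly on the spread pooled over all genes, since the median prior degrees of freedom were 1139 against 3 residual ones, and it was close to that of most members. The control SD of Ctse was 31.7% of its mean, the highest of the 10, followed by Ctss at 20.4%. The interval of Ctse may thus be narrower than its own libraries would give.

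**Figure D1:**
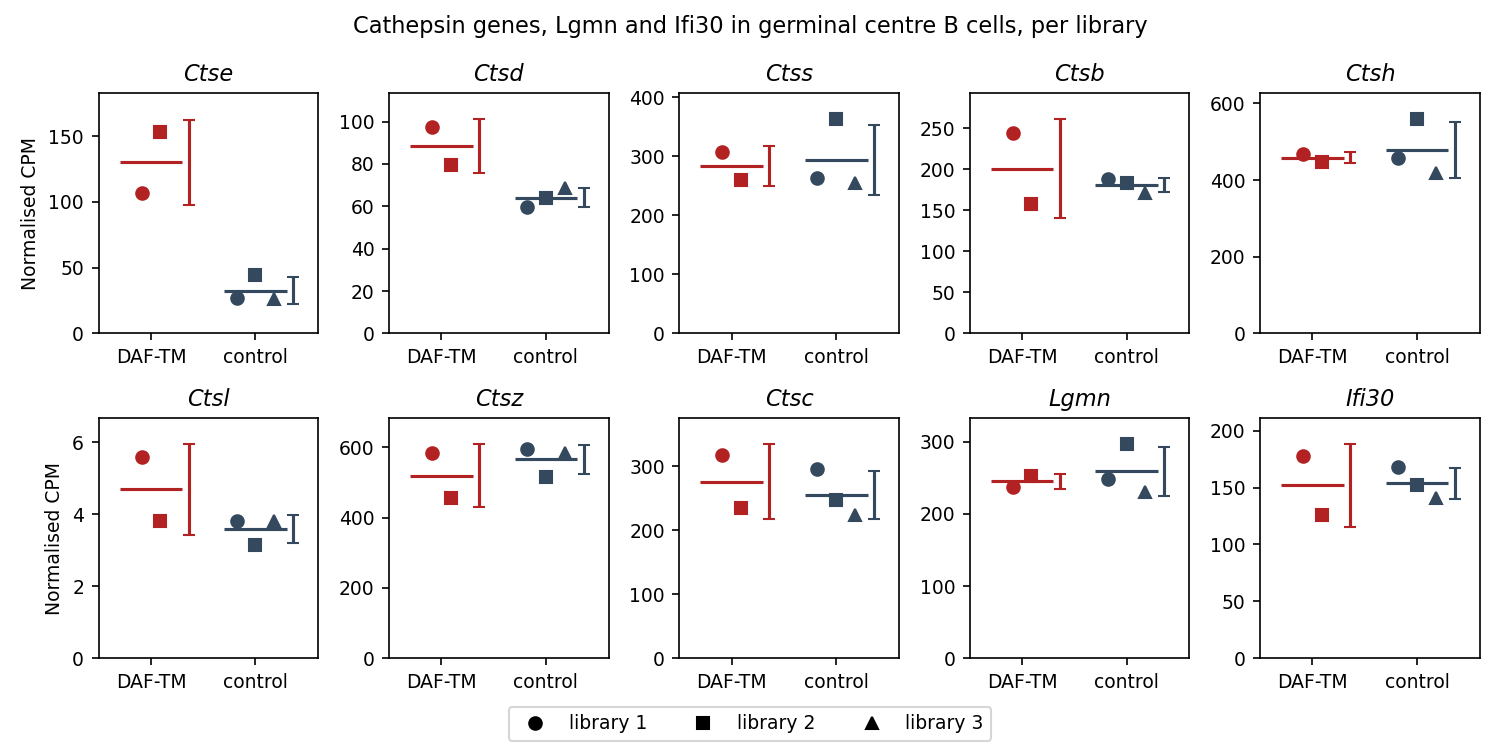
Normalised CPM of the 10 genes in each library (points, shape by library number), with the group mean (horizontal line) and ± SD (bar at the side), DAF-TM in red (n = 2) and control in dark blue (n = 3); every axis starts at 0. Both DAF-TM points of Ctse, 107 and 153 CPM, lie above all control points, those of Ctsd, 97.4 and 79.6 CPM, do so by less, and in the other 8 panels the groups overlap.

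Ctsd, for cathepsin D, was the only other member without overlap between the groups. It had 97.4 and 79.6 CPM in DAF-TM libraries 1 and 2, against 59.6, 64.1 and 68.7 in control libraries 1 to 3. Its log2 fold change of 0.47 (SE 0.17; 95% interval 0.14 to 0.79) did not pass (edgeR adjusted p = 0.431 over all genes, unadjusted p = 0.00512), and it ran from 0.31 without DAF-TM library 1 to 0.60 without DAF-TM library 2. Among all genes tested, 11.3% had both DAF-TM libraries above every control and 20.3% had no overlap in either direction, so an arrangement such as that of Ctsd was common.

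The balance between the pair of aspartic cathepsins differed between groups. Their transcripts have nearly the same exon length in the annotation, 2126 bases for Ctse and 2127 for Ctsd, so their levels can be set side by side per kilobase. The ratio of Ctse to Ctsd in CPM per kilobase was 1.10 and 1.93 in DAF-TM libraries 1 and 2, against 0.452, 0.691 and 0.379 in control libraries 1 to 3. Ctse was thus the more abundant of the pair in both DAF-TM libraries and the less abundant in all 3 controls. Per kilobase of coding length the ratios were 1.13 and 1.99 in DAF-TM libraries and 0.467, 0.713 and 0.391 in controls, with the same order. Since Ctse was chosen for its rise, the ratio carries that choice with it.

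None of the 6 papain-family cysteine cathepsins passed the test, and in each the groups overlapped. Ctss encodes cathepsin S, which makes the last cut of the invariant chain in B cells and dendritic cells. It had 308 and 260 CPM in DAF-TM libraries 1 and 2, against 264, 363 and 255 in control libraries 1 to 3. Control library 2 was the highest of all. The log2 fold change of -0.05 had an SE of 0.17 and a 95% interval from -0.38 to 0.27 (edgeR adjusted p = 0.985). Its sign was not settled: it was -0.19 when DAF-TM library 1 was left out and 0.13 when control library 2 was.

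In Ctsb and Ctsc DAF-TM library 1 was the highest of all libraries. Ctsb encodes cathepsin B, which cuts both within chains and from their carboxyl end. It had 244 and 158 CPM in DAF-TM libraries 1 and 2, against 188, 183 and 171 in control libraries 1 to 3. DAF-TM library 1 was above and DAF-TM library 2 below every control, and the log2 fold change of 0.15 (SE 0.17; edgeR adjusted p = 0.949) was 0.43 without DAF-TM library 2 and -0.20 without DAF-TM library 1. Ctsc encodes cathepsin C, a dipeptidyl peptidase that activates the serine proteases of cytotoxic and myeloid granules. It had 317 and 234 CPM in the DAF-TM libraries and 296, 247 and 223 in the controls (log2 fold change 0.11, SE 0.17; edgeR adjusted p = 0.965), and its value was 0.31 without DAF-TM library 2 and -0.13 without DAF-TM library 1.

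Ctsh and Ctsz had the highest levels of the 10 per kilobase, as given below. Ctsh encodes cathepsin H, mainly an aminopeptidase, and had 468 and 448 CPM in DAF-TM libraries 1 and 2, against 457, 559 and 418 in control libraries 1 to 3 (a log2 fold change of -0.06, SE 0.17, edgeR adjusted p = 0.981). Ctsz encodes cathepsin Z, a carboxypeptidase also called cathepsin X, and had 584 and 456 CPM in the DAF-TM libraries and 596, 517 and 584 in the controls (log2 fold change -0.12, SE 0.17; edgeR adjusted p = 0.958). For Ctsz, DAF-TM library 1 lay among the controls and DAF-TM library 2 below them, and without library 1 the value was -0.32, without library 2 0.05. Ctsh turned to 0.06 without control library 2.

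Ctsl was the member with the fewest reads. It encodes cathepsin L, which processes the invariant chain in the epithelium of the mouse thymic cortex. It had 62 and 45 raw counts in DAF-TM libraries 1 and 2, against 36, 37 and 28 in control libraries 1 to 3, or 5.58 and 3.8 CPM against 3.81, 3.14 and 3.81. At this depth the 95% interval of the log2 fold change of 0.39 (SE 0.39; edgeR adjusted p = 0.949) ran from -0.36 to 1.15, wide enough to hold a difference in either direction.

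Legumain and GILT, the other enzymes of the antigen-processing compartment, did not pass either. Lgmn encodes legumain, which cuts after asparagine and activates several cathepsins. It had 238 and 252 CPM in DAF-TM libraries 1 and 2, against 249, 297 and 231 in control libraries 1 to 3, with both DAF-TM values inside the control range (log2 fold change -0.08, SE 0.17; edgeR adjusted p = 0.973, and 0.03 on the log2 scale without control library 2). Ifi30 encodes GILT, which interferon gamma induces. It had 178 and 126 CPM in the DAF-TM libraries and 168, 152 and 141 in the controls, 1 DAF-TM library above and 1 below all controls (log2 fold change -0.02, SE 0.17; edgeR adjusted p = 0.994). Its value was 0.21 without DAF-TM library 2 and -0.29 without DAF-TM library 1. The GENCODE M21 annotation of this build gives Ifi30 no coding transcript, so only its exon length was used below.

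**Figure D2:**
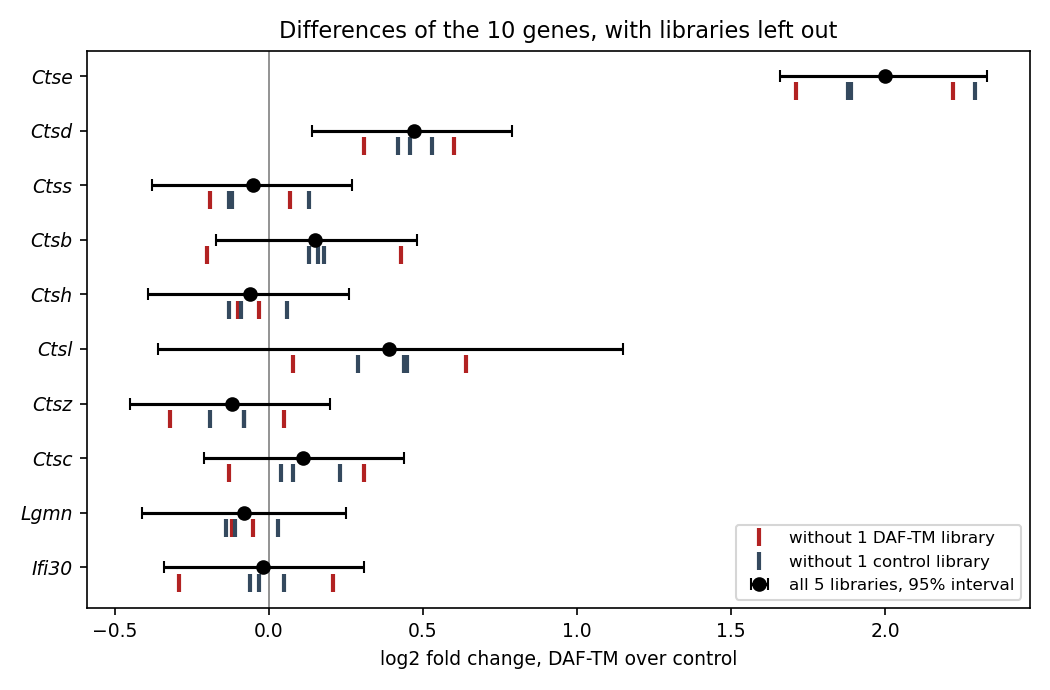
The log2 fold change of each of the 10 genes, DAF-TM over control, with its 95% interval (black, all 5 libraries) and the value when 1 DAF-TM library (red ticks) or 1 control library (blue ticks) was left out. Ctse stays between 1.71 and 2.29, Ctsd between 0.31 and 0.60 and Ctsl between 0.08 and 0.64, while the other 7 genes have ticks on both sides of 0.

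Of the 10 genes, none other than Ctse, which was selected on this contrast, passed the threshold (edgeR adjusted p under 0.05), and none was called lower. Of the 18767 genes tested, 0.41% were called in either direction, 0.373% higher and 0.0373% lower. The rule used this contrast, so nothing is read from that count. The log2 fold change was positive in 5 of the 10 and negative in 5. The median of the 9 members other than Ctse was -0.02, with a range from -0.12 for Ctsz to 0.47 for Ctsd, beside a median of 0.03 over all genes tested, and their edgeR adjusted p-values ran from 0.431 to 0.994.

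The pair of DAF-TM libraries also differed from each other. Of the 10 genes, 8 stood higher in DAF-TM library 1 than in DAF-TM library 2, and Ctse and Lgmn stood lower. The 9 genes without Ctse summed to 2439 and 2019 CPM in DAF-TM libraries 1 and 2, against 2282, 2386 and 2096 in control libraries 1 to 3. Library 1 thus had the highest sum of all 5 libraries and library 2 the lowest. Ctse made up 4.20 and 7.06% of the CPM of all 10 genes in the DAF-TM libraries and 1.17, 1.82 and 1.23% in the controls. These shares were not divided by gene length, and they carry the choice of Ctse with them.

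Levels of different genes were compared per kilobase of exon. In DAF-TM cells the order by mean CPM per kilobase was Ctsz (361), Ctsh (283), Ctss (209), Ifi30 (155), Lgmn (122), Ctse (61.2), Ctsc (51.8), Ctsb (42.4), Ctsd (41.6) and Ctsl (0.761). In control cells it was Ctsz (392), Ctsh (296), Ctss (217), Ifi30 (157), Lgmn (128), Ctsc (47.9), Ctsb (38.2), Ctsd (30.2), Ctse (15.2) and Ctsl (0.581). The first 5 places were the same in both groups, while Ctse was 6th in DAF-TM cells and 9th in controls. Neighbours whose libraries overlapped were Ctse with Ctsc, Ctsc with Ctsb and Ctsb with Ctsd in DAF-TM cells, and Ctsh with Ctss and Ifi30 with Lgmn in controls. The order of Ctsb, Ctsc and Lgmn and the place of Ctse depended on the length used. Per kilobase of coding length, which Ifi30 lacks here, Ctsc (199), Ctsb (198) and Lgmn (188) followed Ctss in DAF-TM cells, and Lgmn (198), Ctsc (184) and Ctsb (178) did in controls. By coding length Ctse was 7th in DAF-TM cells (109) and 8th in controls (27.2), below both Ctsc and Ctsb in each group. By both lengths Ctsl was the lowest in each group, and Ctse stood above Ctsd in DAF-TM cells and below it in controls.

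The rest of the lysosomal system was followed in 9 lists of related genes, 163 different genes with a row and 155 tested. Of these 1 was higher in DAF-TM cells, Ctsw, and none was lower (0.645% called, beside 0.41% of all genes tested). The log2 fold change was positive in 63 of the 155, and the median was -0.05, beside 0.03 over all genes. Both DAF-TM libraries lay above the controls in 14 of the 155 genes and below them in 24. Beside the 11.3% and 9.02% of all genes tested, the first share was smaller and the second larger.

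Ctsw, the gene of that call, encodes cathepsin W, a papain-family protease of natural killer cells and cytotoxic T cells. It had 11.1 and 4.90 CPM in DAF-TM libraries 1 and 2, against 3.91, 1.53 and 3.13 in control libraries 1 to 3 (log2 fold change 1.5 with an SE of 0.37; edgeR adjusted p = 0.0158). This call was lost on leaving out DAF-TM library 1 (log2 fold change 0.79, adjusted p = 0.562), control library 2 (1.16, adjusted p = 0.413) or control library 3 (1.58, adjusted p = 0.181). It was also lost with the Y-linked level as a term (adjusted p = 0.102). Markers of natural killer cells moved with it: 8 of 16 tested were called higher and all 16 had positive values, with a median of 1.47. Over all genes tested, 0.373% were called higher, 53.9% were positive and the median was 0.03. The natural killer markers summed to 172 and 103 CPM in the DAF-TM libraries and 45.9, 50.5 and 68.2 in the controls, with none of 18 at 0. Their part in the Ctsw value was not tested.

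The other 13 cathepsin genes tested did not pass. Ctso had the highest mean CPM of that list, with 212 and 194 CPM in DAF-TM libraries and 212, 343 and 195 in controls (log2 fold change -0.30; edgeR adjusted p = 0.91). Ctsa, whose product protects other lysosomal enzymes, had 194 and 187 CPM in DAF-TM libraries and 182, 191 and 184 in controls. The remaining cathepsins were scarce. The highest of them was Cts8, of a cluster used in the rodent placenta, at 3.6 and 6 CPM in DAF-TM libraries and 3.49, 4.66 and 2.86 in controls, and reads of such near-identical copies may have been split or dropped in the counting.

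None of 11 other aspartic proteases tested passed (median log2 fold change 0.06). Napsa, for napsin A, had the highest mean CPM, with 260 and 231 CPM in DAF-TM libraries and 255, 252 and 257 in controls (log2 fold change -0.05, SE 0.17). Sppl2a, an intramembrane aspartic protease that clears the last stub of the invariant chain in B cells, had 164 and 141 CPM in DAF-TM libraries and 175, 226 and 172 in controls, below every control, and did not pass (log2 fold change -0.32, SE 0.17; edgeR adjusted p = 0.876). Ren1 was at 0 in every library.

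Among 12 tested inhibitors of these proteases none passed, 6 had positive and 6 negative values, and the median log2 fold change was 0.22. Cst3, for the secreted inhibitor cystatin C, had the highest mean CPM, with 184 and 170 CPM in DAF-TM libraries and 209, 170 and 179 in controls (log2 fold change -0.07). Serpinb1a, an inhibitor of granule serine proteases, had 59.6 and 43.4 CPM in DAF-TM libraries and 34.3, 43.1 and 31.6 in controls. Its log2 fold change of 0.50 did not pass (edgeR adjusted p = 0.398) and passed without control library 2 (0.64, adjusted p = 0.0292). Serpinb1a passed in none of the other alternatives, and its log2 fold change was 0.25 without DAF-TM library 1. Serpinb9, an inhibitor of granzyme B, did not pass either (log2 fold change 0.89, edgeR adjusted p = 0.429). It had 13.6 and 6.42 CPM in DAF-TM libraries and 4.76, 6.78 and 4.5 in controls. Its log2 fold change was 1.33 without DAF-TM library 2 and 0.24 without DAF-TM library 1.

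The genes of MHC class II and its loading, the destination of the peptides, were not called in either direction. Of 14 tested, 13 had negative values, with a median log2 fold change of -0.13, and in 5 both DAF-TM libraries lay below the controls, beside 9.02% of all genes tested. Cd74, for the invariant chain, had 10290 and 8815 CPM in DAF-TM libraries and 9784, 10350 and 10000 in controls (log2 fold change -0.07, SE 0.16; edgeR adjusted p = 0.976). H2-Aa, for a chain of the MHC class II molecule, had 2770 and 2697 CPM in DAF-TM libraries and 3138, 3986 and 2870 in controls (log2 fold change -0.29; adjusted p = 0.92).

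Genes that deliver enzymes to lysosomes, acidify them or build their membrane gave no calls. Of 17 sorting genes 13 were negative (median log2 fold change -0.08), with the adaptor Gga2 at 526 and 454 CPM in DAF-TM libraries and 513, 478 and 547 in controls. Of 15 proton-pump genes 13 were negative (median -0.09), with Atp6v1f at 205 and 212 CPM in DAF-TM libraries and 241, 257 and 208 in controls. Atp6v0c, for a pump subunit that cells in general need, held at most 0.106 CPM in any library, so a row near 0 in this table does not show that a gene is silent. Of 19 membrane genes 12 were negative (median -0.04), with Laptm5 at 1491 and 1220 CPM in DAF-TM libraries and 1497, 1470 and 1596 in controls.

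The remaining hydrolases and the regulators of lysosome genes were also without calls. Of 38 other hydrolases 20 were positive and 18 negative, with a median log2 fold change of 0.01. Psap, for the precursor of the saposins, had the highest mean CPM, with 165 and 166 CPM in DAF-TM libraries and 186, 174 and 177 in controls (log2 fold change -0.11; edgeR adjusted p = 0.965). Of 15 regulators 9 were negative (median -0.02). Tfeb, a transcription factor of lysosome genes, had 123 and 96.4 CPM in DAF-TM libraries and 110, 95.8 and 116 in controls (log2 fold change 0.03, SE 0.17; edgeR adjusted p = 0.985). Lamtor5 had the highest mean CPM of the regulators over the 5 libraries, at 137 and 134 CPM in DAF-TM libraries and 145, 167 and 129 in controls. Rraga, a GTPase gene of nutrient signalling at the lysosome, was above it in the control mean. It had 102 and 115 CPM in DAF-TM libraries, below the 132, 193 and 155 in controls, and did not pass (log2 fold change -0.56; edgeR adjusted p = 0.162).

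**Figure D3:**
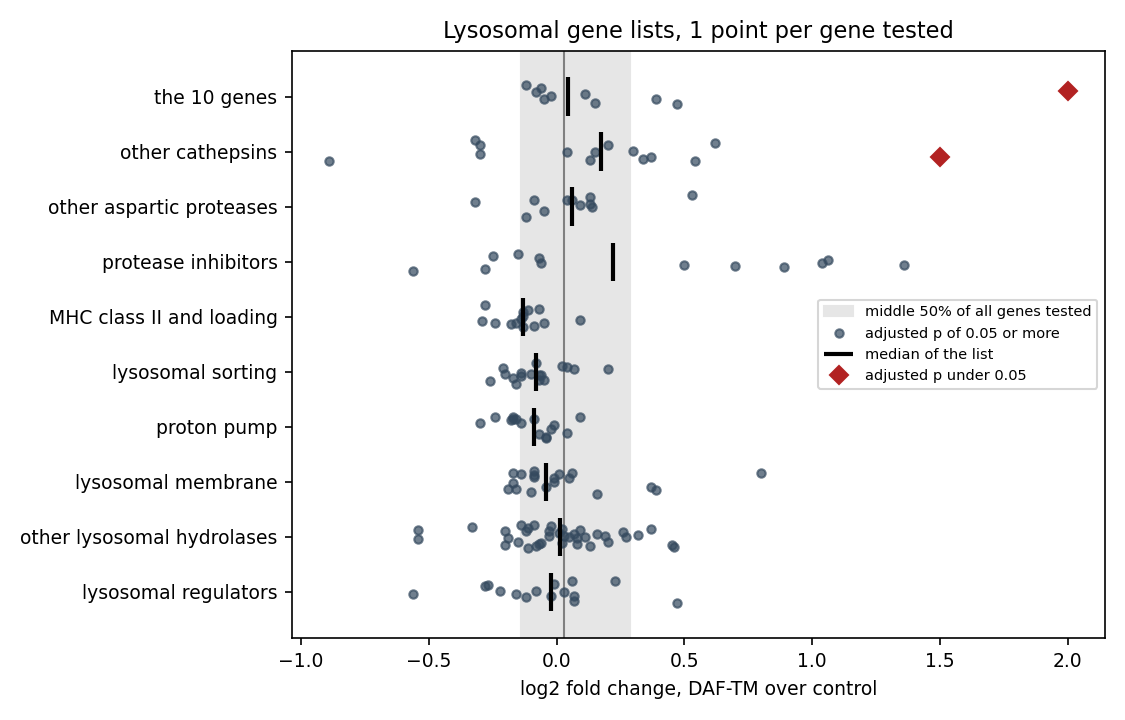
The log2 fold change, DAF-TM over control, of each tested gene of the 10 followed here and of the 9 lysosomal lists (points; red diamonds have an edgeR adjusted p under 0.05), with the median of each list (black line) and the middle 50% and median of all genes tested (grey). Ctse at 2.0, selected on this contrast, and Ctsw at 1.5 are the only red points, and the list medians lie between -0.13 and 0.22.

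The position of Ctse was set beside its difference. The mouse's own Cd55 lies on the same chromosome, at a distance of 1.17 Mb. The DAF-TM allele was placed at R26 (Rosa26) by the series' design text, not at Cd55. Within 500 kb on either side of Ctse the table held 16 other genes, all tested, and none was called (lowest edgeR adjusted p = 0.896). Their log2 fold changes ran from -0.23 to 0.80, with a median of 0.07. The nearest on either side were 5430435G22Rik, the small GTPase gene Rab7b in RefSeq, at 13.2 kb, and Avpr1b, a vasopressin receptor gene, at 26.3 kb. 5430435G22Rik had 2.16 and 2.03 CPM in DAF-TM libraries and 1.90, 1.78 and 3.81 in controls (log2 fold change -0.22, SE 0.47), and Avpr1b had 3.33 and 7.18 in DAF-TM libraries and 2.86, 3.39 and 5.58 in controls (0.44, SE 0.37). Slc45a3, at the top of the range, had 3.06 and 3.04 CPM in DAF-TM libraries and 2.54, 1.44 and 1.23 in controls, while the abundant Nucks1, at the bottom, had 240 and 220 against 265, 290 and 252.

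**Figure D4:**
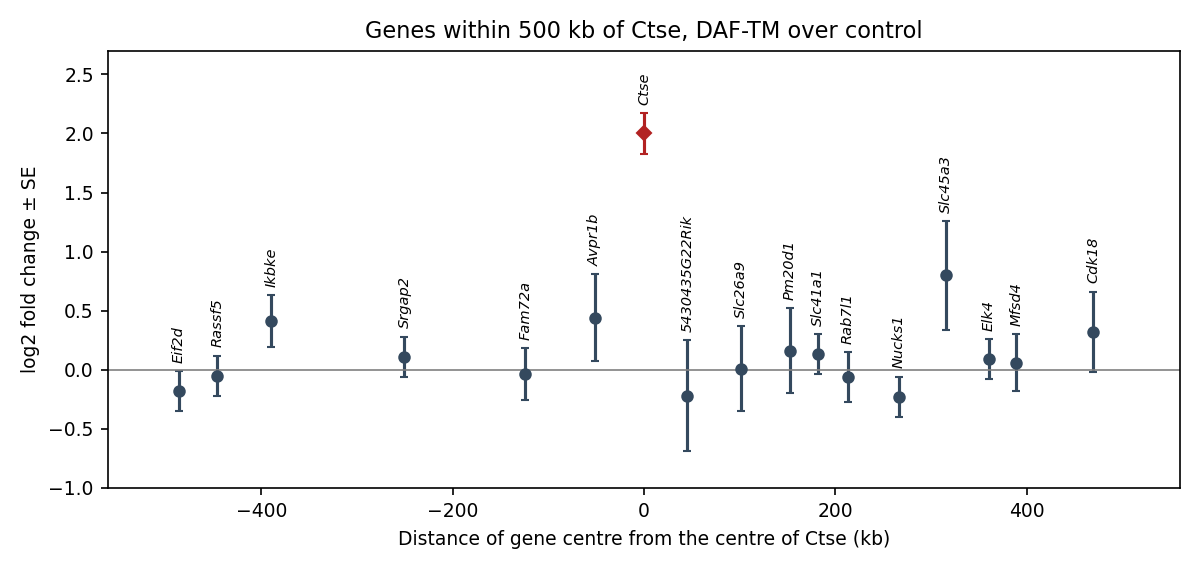
The log2 fold change ± SE, DAF-TM over control, of Ctse (red diamond) and the 16 other genes within 500 kb (blue points), by the distance of the gene's centre from that of Ctse in kb. Ctse stands at 2.0, and the neighbours lie between -0.23 and 0.80.

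Genes with a profile near that of Ctse were sought among 9044 genes with a mean of at least 10 CPM, by the root mean square difference of log2(CPM + 0.5) over the 5 libraries, each gene centred on its control mean. Among the 5 nearest were Ccr7 (0.46), Cnn3 (0.51), S100a10 (0.53) and Klf2 (0.60). Of the other members with that mean, the nearest was Ctsd, at 1.05, and the farthest Ctsz, at 1.42. Ccr7, for a chemokine receptor of the T cell zone, had 30.8 and 23.6 CPM in DAF-TM libraries and 7.51, 7.46 and 8.72 in controls. Cnn3, for the actin-binding calponin 3, had 17.9 and 21.3 CPM in DAF-TM libraries and 8.14, 7.89 and 6.81 in controls. Ctse and Cnn3 were higher in DAF-TM library 2 than in library 1, whereas Ccr7, S100a10 and the quiescence factor gene Klf2 were lower there. S100a10, for a partner of annexin A2, had 41.9 and 20.2 CPM in DAF-TM libraries and 6.35, 12.9 and 7.49 in controls, and Klf2 had 63.1 and 35.6 in DAF-TM libraries and 16.1, 23.5 and 16.6 in controls. These 5 libraries share 1 contrast, and genes picked for their likeness are bound to differ between the groups as Ctse does.

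Markers of other cells that also express these proteases moved in part with the DAF-TM group. In bulk RNA, more cells of another type and more RNA per cell cannot be told apart. Over all genes tested, 0.373% were called higher and 53.9% had positive values. Of 24 macrophage and monocyte markers tested 19 had positive and 5 negative values (median log2 fold change 0.59). Those called higher were Csf1r, C1qb, Vcam1, Slc40a1 and Trf, 5 in all. The markers of this list summed to 1060 and 791 CPM in DAF-TM libraries 1 and 2, against 884, 807 and 907 in control libraries 1 to 3. Without the abundant Apoe the sums were 283 and 184 in DAF-TM libraries against 206, 139 and 174 in controls. None of the 25 was at 0. Dendritic cell markers summed to 164 and 144 CPM in DAF-TM libraries and 135, 126 and 126 in controls (1 of 14 called higher, Siglech; median 0.44; none of 15 at 0), and T cell markers to 325 and 338 in DAF-TM libraries and 312, 341 and 326 in controls (2 of 18 called higher; median 0.75; none at 0). Most of the T cell sum was Lck, at 213 and 223 CPM in DAF-TM libraries and 249, 285 and 252 in controls. Without Lck the T cell sum was 111 and 115 CPM in DAF-TM libraries and 62.7, 56.3 and 74.0 in controls. Both DAF-TM libraries lay above every control in 13 of the 18 T cell markers and below in 1. For the 24 macrophage and monocyte markers these counts were 10 and 0, and for the 14 dendritic cell markers 6 and 0. Over all genes tested the shares were 11.3% and 9.02%. Lck and Apoe were set aside after their values were seen.

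Red cell precursors, a known site of cathepsin E, gave no calls. Of 14 erythroid markers tested 7 were positive and 7 negative (median 0.01), and they summed to 63.7 and 77.4 CPM in DAF-TM libraries and to 65.0, 65.8 and 77.4 in controls. The globin genes Hba-a1, Hba-a2 and Hbb-b2 were at 0 in every library, but they belong to near-identical copies whose reads the counting may drop. Plasma cell markers summed to 5393 and 4025 CPM in DAF-TM libraries and to 4188, 6346 and 4859 in controls, with 1 of 12 called higher, Prdm1. Neutrophil markers summed to 40.9 and 102 CPM in DAF-TM libraries and to 118, 104 and 325 in controls, with 1 of 14 called lower, Chi3l3. Over all genes tested, 0.373% were called higher and 0.0373% lower.

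Markers of naive and follicular B cells were added after the genes nearest to Ctse were seen, so their calls are not independent of them. Of 12 genes 4 were called higher, among them Ccr7, Klf2 and S1pr1, and none lower (median log2 fold change 0.25), beside 0.373% called higher over all genes tested. In 5 of the 12 both DAF-TM libraries lay above every control and in none below, beside 11.3% and 9.02% of all genes tested. Among these was Bcl2, with 23.7 and 23.9 CPM in DAF-TM libraries and 14.9, 13.9 and 15.4 in controls (edgeR adjusted p = 0.164, not called). The 12 markers summed to 1838 and 1358 CPM in DAF-TM libraries 1 and 2, against 1487, 1587 and 1370 in control libraries 1 to 3. Fcer2a, for the IgE receptor CD23, had 211 and 229 CPM in DAF-TM libraries and 170, 287 and 206 in controls, and Cd38 had 140 and 62.8 in DAF-TM libraries and 162, 67.5 and 115 in controls, and in both the groups overlapped. The part of the macrophage, dendritic, T cell, plasma and naive B cell markers in the values of the 10 genes was not tested.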

How the data were processed

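RNA of sorted splenic germinal centre B cells was reverse transcribed from an oligo-dT primer (SMART-Seq v4, 10 ng of RNA per sample), per the labels' protocols. The submitters' processing notes name bcl2fastq, HISAT2 and featureCounts, without versions, and the title line of the table names mm10. For the annotation, the strand setting and multi-mapped reads the entry is "not given in the sources used here". The authors' deposited values are raw counts by gene symbol, not normalized. In 27 rows, at most 0.266% of a library's counts, a spreadsheet had turned the symbol into a date; these rows stayed in the library sizes.

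DAF-TM columns 2 and 3 were identical and counted once, which gave 5 libraries. Counts were fitted with edgeR 4.0.16 (R 4.3.3): TMM factors, filterByExpr, robust glmQLFit and a two-sided glmQLFTest, Benjamini-Hochberg adjusted over 18767 genes, threshold 0.05. The fit called 77 genes, 70 higher. The SE is the log2 fold change over the square root of F. CPM are TMM-normalised. The code was tested on simulated data. Exon lengths (union of exons) and longest coding lengths came from GENCODE M21 basic, positions from RefSeq GRCm38.p6. Of 325 list entries 322 had a row, 7 of them under another symbol.

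The genes, lists and tests were chosen with earlier results of these data known. Genes named were the 10, Cd55, the called and the gene with the highest mean CPM of each lysosomal list, the 5 nearest profiles and called neighbours. Further named genes were chosen after their values were seen. Alternatives were RLE and upper-quartile factors, 2 other filters, DESeq2 1.42.0, limma-voom (limma 3.58.1), a replicate block, a Y-linked covariate and leaving out each library. Replicate numbers were not taken as pairs, since no label ties equal numbers to a litter or batch. 1 gene that the rule names is not reported here.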

Additional observations from a re-analysis of the deposited data

How the results depend on the processing

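The calls over all genes numbered 77 in the reported fit, 39 with upper-quartile factors, 27 with DESeq2 and 49 with limma-voom, and from 14 (without DAF-TM library 1) to 118 (without DAF-TM library 2) when 1 library was left out, with 43 without control library 1 and 44 without control library 3. None of the 9 members other than Ctse was called in any of the 13 alternatives. For Ctse, which was selected on this contrast, log2 fold changes ran from 1.71 to 2.29, given as a description, and for Cd55 from 4.52 to 4.78. The single call among the lysosomal lists fell to 0 with upper-quartile factors, DESeq2, limma-voom, the replicate block and the Y-linked covariate, and ran from 0 to 2 with 1 library left out. For the members near 0 the sign turned. With upper-quartile factors Ctss stood at 0.02, Ctsh at 0.02, Lgmn at 0.00 and Ifi30 at 0.04. With the Y-linked covariate Ctss stood at 0.09 and Ctsh at 0.01. With 1 library left out, Ctss ran from -0.19 to 0.13 (0.07 without DAF-TM library 2), Ctsb from -0.20 to 0.43, Ctsh from -0.13 to 0.06, Ctsz from -0.32 to 0.05, Ctsc from -0.13 to 0.31, Lgmn from -0.14 to 0.03 and Ifi30 from -0.29 to 0.21 (0.05 without control library 1). The cause was not tested. With the replicate number as a block 61 genes were called, Ctse stood at 1.89 and the call of no member changed. Deviations of same-numbered libraries from their group means correlated at -0.12 and -0.25. The deviations of the 2 DAF-TM libraries are opposite by construction, so these correlations cannot show whether equal numbers were pairs. With 2 against 3 libraries, differences of the size seen for Ctsd are not resolved at the adjusted threshold, and Ctsl is limited by its 28 to 62 counts.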
